A study of Mus musculus with 18 samples.

Results

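The genes that coat lipid droplets and control the release of fatty acids from them were followed in mouse liver across diet and CMPF treatment. The set has 10 genes: the perilipins Plin2, Plin3, Plin4 and Plin5, the CIDE genes Cidea, Cideb and Cidec, the lipase gene Pnpla2, its inhibitor G0s2, and Hsd17b13. They were chosen by symbol, as every probe set (a group of short probes against 1 transcript) that the platform annotation pairs with exactly 1 of these symbols. This gave 13 probe sets of 45101 on the array, for 10 genes of 18193 with a probe set. Of the 10, 9 were among the 13228 genes tested, and Cidea was below the filter on low signal. Plin5, Pnpla2 and Hsd17b13 have 2 probe sets each, and the one with the higher mean over all arrays stands for the gene.

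Liver RNA of wild-type CD1 mice, an outbred stock, was measured on 18 Affymetrix arrays, 3 in each of 6 groups. The compound was CMPF, a furan fatty acid metabolite found in blood. In the reversal model the groups were CMPF+HFD (6 weeks on a diet drawing 60% of its calories from fat, the high-fat diet or HFD, then 2 weeks of CMPF injections at 6 mg/kg per day), HFD (the same diet, then vehicle) and chow. Those of the prevention model were CMPF+HFD (CMPF at the same dose for 1 week, then HFD for 4 weeks per the sample labels and for up to 5 weeks per the series text), HFD (vehicle, then the same diet) and chow. Both chow groups are labelled as controls. Whether they were injected, whether the diet went on during the reversal injections, the age and sex of the mice and the dates of the arrays are not given in the sources used here.

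Hepatocytes store triglyceride in droplets whose surface is covered by perilipins, and a droplet shrinks when the lipase encoded by Pnpla2 removes the first fatty acid of a triglyceride. Perilipins and G0s2 hold this lipase back in different ways, while CIDE proteins let droplets exchange lipid and grow. Fat-loaded livers of rodents are known for higher amounts of several of these proteins, and many of the genes are targets of nuclear receptors that bind fatty acids.

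All values below are the deposited log2 signals, on which a step of 1 is a doubling, and groups are compared within a probe set and within a model. Where an array is set against all 18, the level of the deposited values also differs between the models. Replicates 2 and 3 of prevention CMPF+HFD were nearly identical, with an SD of their difference of 0.102 over 3719 bright genes against at least 0.277 in every other pair of arrays. Their mean was used as 1 sample, which leaves n = 2 there and 17 samples in the fit. Separate animals are not stated for the arrays within a group, and a p here measures only how far arrays spread. Array 2 of reversal chow stood apart, with a median correlation of 0.948 with the other arrays of its model and 548 probe sets on which it was lowest by more than 1. A 3' to 5' index, computed from the array's control probe sets and higher where the 5′ end of a transcript gives less signal, was 2.84 ± 0.303 in prevention HFD livers and 1.43 ± 0.512 in prevention chow livers (SD, n = 3 each), with no overlap (exact two-sided permutation p = 0.1, the smallest that 3 against 3 allows, and 0.4 after Benjamini-Hochberg over 4 comparisons). Reversal livers had an index of 2.62 ± 0.969 in HFD livers and 3.15 ± 0.566 in chow livers (SD, n = 3 each; exact p = 0.6, adjusted 0.8).

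Markers of the labelled tissue were high on every array. The mean of the 7 hepatocyte markers measured, of a list of 8, ranged over 12.8 to 12.9 in reversal HFD livers and 12.73 to 13.02 in reversal chow livers. It ranged over 12.49 to 12.60 in prevention HFD livers and 12.45 to 12.81 in prevention chow livers. Kupffer cell and macrophage markers, with 8 of 8 tested, averaged 7.11 to 7.90 in reversal HFD livers against 6.39 to 7.03 in reversal chow livers, without overlap, while 0 of the 8 passed the threshold in that comparison. They averaged 6.06 to 8.28 in prevention HFD livers and 6.14 to 8.30 in prevention chow livers, with overlap, and again 0 passed. In whole liver, fewer cells of a type and less RNA per cell cannot be told apart.

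Plin4 and Plin5, the members that passed a test, lie next to each other on chromosome 17 with 0 annotated genes between them, and Plin3 lies 9 genes beyond Plin5. Plin4 and Plin5 passed in different models and in opposite directions. They correlated at r = 0.10 over the 17 samples after each model's mean was subtracted (Pearson), and shared control was not tested. The promoters of Plin4 and Plin5 are shown from RefSeq (GRCm38.p6). Each runs from 250 bases before to 50 after the annotated start, written 5′ to 3′ in the direction of transcription. The Plin4 window is chr17:56109733-56110032 and the Plin5 window is chr17:56117499-56117798, both on the minus strand. Capitals mark the letters AGGTCA (a nuclear receptor half-site), CCAAT and TATAA, searched on both strands, so that ATTGG marks CCAAT on the other strand.
Plin4: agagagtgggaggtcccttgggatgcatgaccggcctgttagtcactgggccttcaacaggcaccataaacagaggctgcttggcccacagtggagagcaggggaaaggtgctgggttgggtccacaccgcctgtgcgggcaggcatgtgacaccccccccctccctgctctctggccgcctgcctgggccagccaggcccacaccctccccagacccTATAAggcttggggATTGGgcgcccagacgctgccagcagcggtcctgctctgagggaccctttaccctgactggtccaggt
Plin5: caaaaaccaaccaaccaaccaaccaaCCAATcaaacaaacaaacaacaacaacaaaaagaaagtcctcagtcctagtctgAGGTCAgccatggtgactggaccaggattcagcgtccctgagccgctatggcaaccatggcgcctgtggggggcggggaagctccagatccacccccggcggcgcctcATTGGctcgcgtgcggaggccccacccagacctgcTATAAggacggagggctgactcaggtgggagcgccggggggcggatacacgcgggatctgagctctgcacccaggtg
The Plin5 window, the farther upstream of 2 that the table lists for the gene, holds 1 AGGTCA at 170 bases before the start, CCAAT on the forward strand at 224 bases before it and on the other strand at 62 bases before it, and TATAA at 27 bases before it. The Plin4 window holds CCAAT on the other strand at 18 bases before the start and TATAA at 32 bases before it. Of 32851 mouse promoter windows of this length, 16.3% hold AGGTCA, 37.4% CCAAT and 24.9% TATAA. The 9 members searched have 11 windows, and a member counted if any of its windows held the letters, while the shares are per window. AGGTCA was found in 3 members (Plin2, Plin5 and Hsd17b13), CCAAT in 4 (Plin2, Plin3, Plin4 and Plin5) and TATAA in 3 (Plin4, Plin5 and Cideb). The direct repeat of AGGTCA with 1 base of any kind between the copies, which overlaps the half-site, was found in 0 members and in 0.0396% of windows. A looser form, with any base in place of the T of each copy, was found in 0 members and in 0.381% of windows.

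With the high-fat diet, 1 perilipin passed the threshold in each model. In the reversal model Plin5 fell to 0.419 of its chow level, and in the prevention model Plin4 rose 3.28-fold over chow. The other 7 tested members did not pass in either comparison. The threshold was an adjusted p of 0.05 in limma with Benjamini-Hochberg adjustment over all 13228 genes. Of 9 tested members, 1 was called in the reversal model, where 2.45% of all genes were, and in the prevention model 1 of 9, where 5.57% were. Groups did not overlap for 2 of 9 members in the reversal model, against 23.3% of all genes, and for 3 of 9 in the prevention model, against 29.2%. The median log2 fold change of the 9 members was 0.18 in the reversal model and -0.02 in the prevention model, beside 0.03 and 0.00 over all genes.

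**Figure D1:**
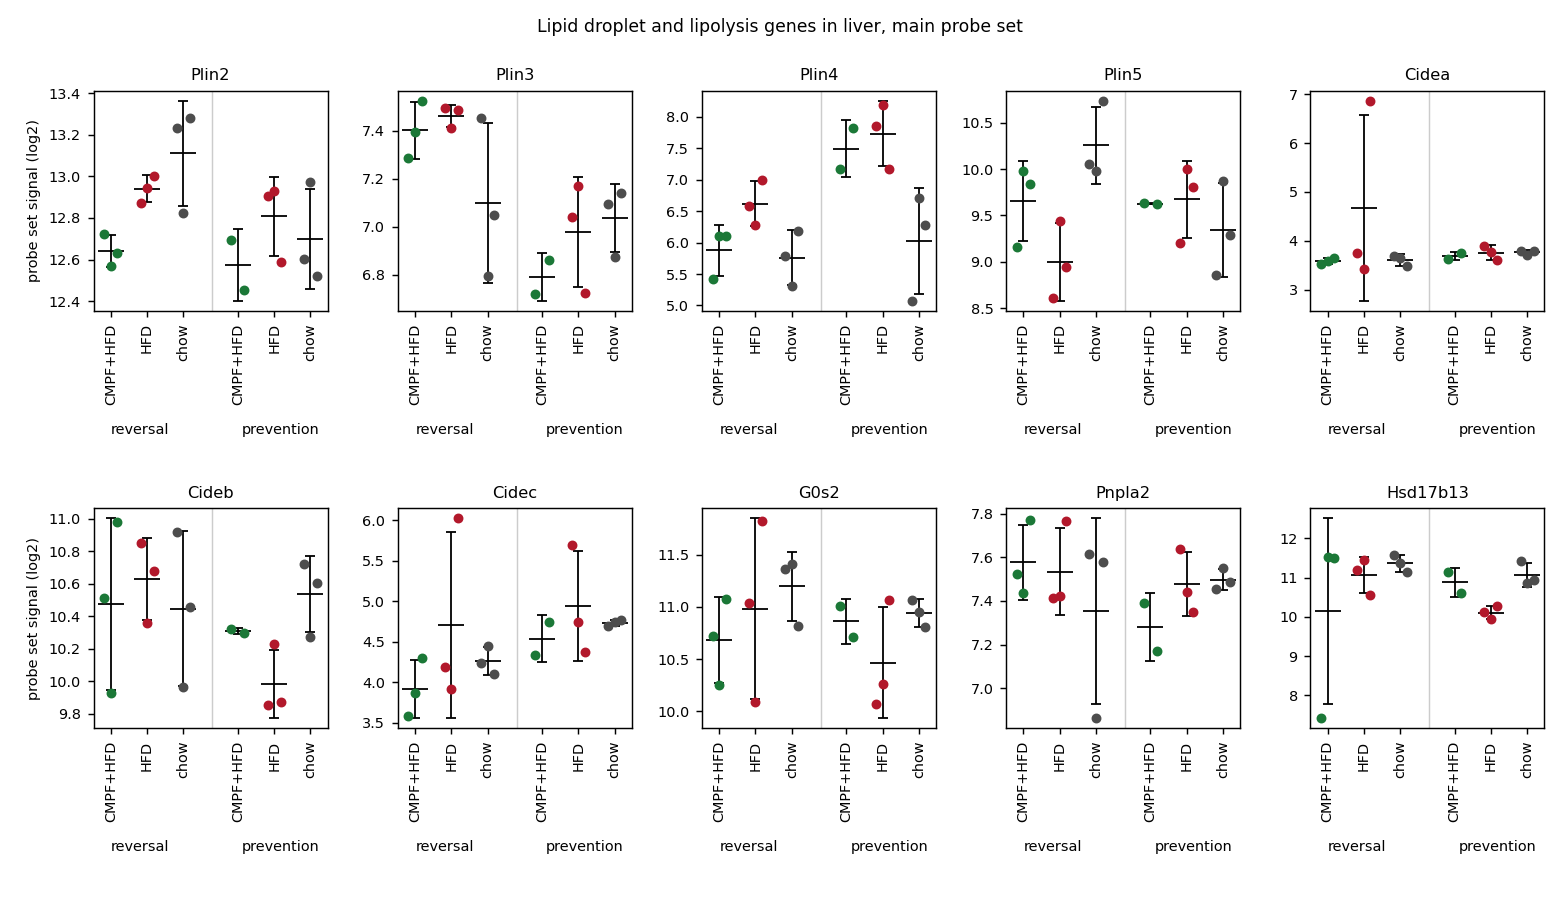
Signal (log2) of the main probe set of each of the 10 members in the 6 groups, with 1 point per sample and bars for the mean ± SD (n = 3, and n = 2 in prevention CMPF+HFD, where replicates 2 and 3 are shown as their mean). Plin5 is lower in reversal HFD livers (8.9998 ± 0.420) than in reversal chow livers (10.26 ± 0.418), Plin4 is higher in prevention HFD livers (7.73 ± 0.520) than in prevention chow livers (6.02 ± 0.842), and Cidea stands at 6.86 on 1 array.

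Plin5, a coat protein of oxidative tissues that tethers droplets to mitochondria, is measured by 2 probe sets. On the brighter one (1441915_s_at) the signals were 9.16, 9.98 and 9.84 on reversal CMPF+HFD arrays, 8.61, 9.44 and 8.95 on reversal HFD arrays, and 10.06, 9.98 and 10.74 on reversal chow arrays. All 3 HFD arrays lay below all 3 chow arrays, and the CMPF+HFD arrays lay between or among them. The group means were 9.66 ± 0.434, 8.9998 ± 0.420 and 10.26 ± 0.418 (SD, n = 3 each), in the same order of groups. Plin5 fell by 1.26 ± 0.311 (log2, SE) in HFD against chow livers, with a 95% interval from -1.92 to -0.59 and an adjusted p of 0.0496. Without chow array 2, which stands apart, the difference was -1.40 with an adjusted p of 0.0758. The call was kept in 5 and lost in 12 of the 17 fits that each left out 1 sample, with log2 fold changes from -1.48 to -1.02 and adjusted p from 0.0397 to 0.184.

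The same Plin5 probe set in the prevention model read 9.63, 9.72 and 9.53 on CMPF+HFD arrays, 9.21, 9.9996 and 9.81 on HFD arrays, and 8.86, 9.87 and 9.29 on chow arrays. The 3 groups overlapped throughout. HFD exceeded chow by 0.33 ± 0.311 (adjusted p = 0.546). The diet effect in the reversal model minus that in the prevention model was -1.59 ± 0.440, which passed the test of the difference itself (adjusted p = 0.0376), where 11% of all genes passed, 1452 in number and 0 to 2400 when 1 sample was left out. Plin5 was the 1 member of 9 called in that comparison. The difference was -1.73 with an adjusted p of 0.0512 without reversal chow array 2, and -0.995 with an adjusted p of 0.412 with the 3' to 5' index as a covariate. With that covariate 0 of all genes passed.

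The dimmer Plin5 probe set (1424937_at) gave another picture of the same difference. It read 7.73, 8.18 and 9.15 on reversal CMPF+HFD arrays, 7.95, 7.88 and 7.50 on reversal HFD arrays and 8.63, 8.18 and 8.89 on reversal chow arrays. It read 7.30, 7.63 and 7.58 on prevention CMPF+HFD arrays, 7.001, 7.62 and 7.48 on prevention HFD arrays and 7.73, 8.06 and 8.07 on prevention chow arrays. The HFD arrays lay below the chow arrays in both models on this probe set. HFD against chow was -0.79 ± 0.300 in the reversal model (adjusted p = 0.186 over 27022 probe sets) and -0.59 ± 0.300 in the prevention model (adjusted p = 0.226), and the difference between models was -0.20 ± 0.424 (adjusted p = 0.769). The probe sets therefore had the same sign for the diet in the reversal model and opposite signs in the prevention model, where neither passed. Over the 17 samples, after each model's mean was subtracted, they correlated at r = 0.575 (Pearson, a description), and the 2 probe sets of Pnpla2 at 0.116. With the mean of both probe sets as the gene's value, HFD against chow in the reversal model was -1.02 (adjusted p = 0.0645) and the difference between models -0.90 (adjusted p = 0.133). The name of the brighter probe set ends in _s_at, which marks probes shared by more than 1 transcript.

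**Figure D2:**
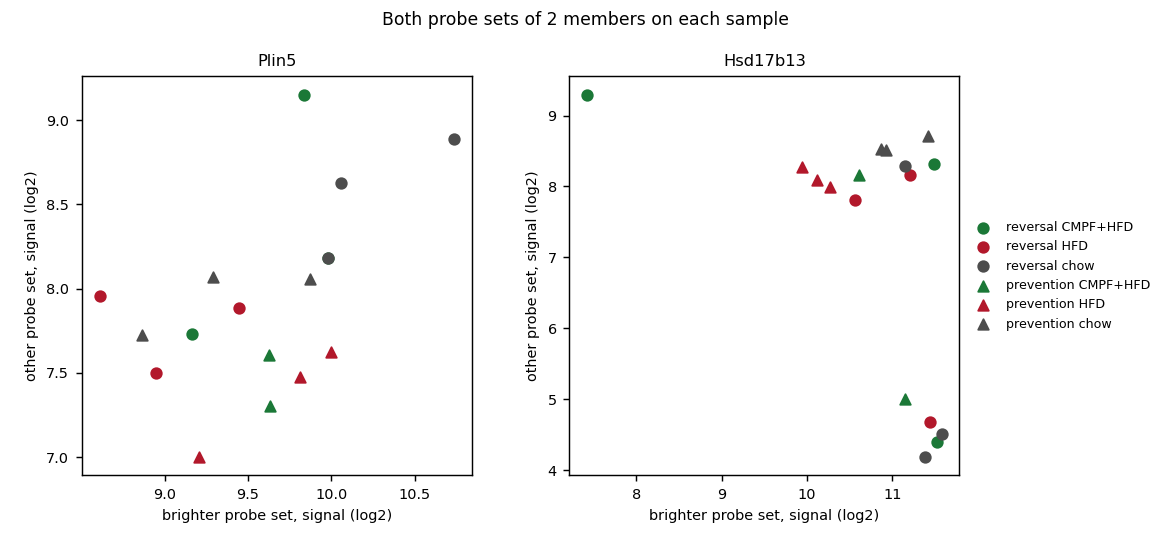
Signal (log2) of the dimmer probe set on the vertical axis against the brighter one on the horizontal axis for Plin5 and Hsd17b13, with 1 point per sample (17 samples, circles for the reversal and triangles for the prevention model). For Plin5 the prevention HFD triangles lie low on the vertical axis but not on the horizontal one, and for Hsd17b13 the samples form 2 clusters on the vertical axis, 5 of them between 4.19 and 5.00 and 12 between 7.81 and 9.30.

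Plin4, an exchangeable coat protein that is most abundant in adipose tissue, has 1 probe set (1418595_at). In the prevention model it read 7.17, 7.72 and 7.91 on CMPF+HFD arrays, 7.84, 8.18 and 7.16 on HFD arrays, and 5.08, 6.70 and 6.28 on chow arrays. Every array on HFD, with or without CMPF, lay above every chow array. The means were 7.49 ± 0.454 in CMPF+HFD livers (SD, n = 2), 7.73 ± 0.520 in HFD livers and 6.02 ± 0.842 in chow livers (SD, n = 3 each). Plin4 rose by 1.71 ± 0.392 (log2, SE) in HFD against chow livers, with a 95% interval from 0.87 to 2.55 and an adjusted p of 0.0293. The call was lost without chow array 1 (1.24, adjusted p = 0.120), chow array 3 (0.0920), HFD array 1 (0.0902) or HFD array 2 (0.0876), with only the HFD and chow arrays of that model in the fit (1.71, adjusted p = 0.0737), and with the 3' to 5' index as a covariate (1.77, adjusted p = 0.175). With the index, 17 of all genes passed in this comparison, against 737 without it. The index was also higher in these HFD livers than in the chow livers, and its part in the result was not tested beyond that covariate.

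Plin4 in the reversal model read 5.41, 6.11 and 6.11 on CMPF+HFD arrays, 6.59, 6.27 and 6.995 on HFD arrays, and 5.79, 5.31 and 6.18 on chow arrays. The HFD arrays lay above both other groups without overlap, and the CMPF+HFD and chow arrays overlapped. HFD against chow was 0.86 ± 0.392 (unadjusted p = 0.0457, adjusted p = 0.215), and 0.63 (adjusted p = 0.499) without chow array 2. The diet effect did not differ detectably between the models for Plin4, at -0.85 ± 0.554 for reversal minus prevention (95% interval -2.04 to 0.34, adjusted p = 0.310).

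Plin2, the main coat protein of hepatocyte droplets, had 99.6% of probe sets below its mean and a within-group SD of 0.182, where the median gene had 0.20. It read 12.72, 12.57 and 12.63 on reversal CMPF+HFD arrays, 12.87, 12.94 and 13.003 on reversal HFD arrays, and 13.23, 12.82 and 13.28 on reversal chow arrays. It read 12.69, 12.47 and 12.43 on prevention CMPF+HFD arrays, 12.91, 12.93 and 12.59 on prevention HFD arrays, and 12.60, 12.97 and 12.52 on prevention chow arrays. In both models the diet groups overlapped, and HFD against chow was -0.17 ± 0.149 in the reversal model (adjusted p = 0.506) and 0.11 ± 0.149 in the prevention model (adjusted p = 0.696). The 95% intervals for the signal of this 1 probe set ran from -0.49 to 0.15 and from -0.21 to 0.43, within a doubling. They cover only how far arrays spread.

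Plin3, an exchangeable perilipin that shuttles between cytosol and droplets, read 7.29, 7.39 and 7.52 on reversal CMPF+HFD arrays, 7.49, 7.41 and 7.48 on reversal HFD arrays, and 7.45, 6.79 and 7.05 on reversal chow arrays. Chow array 1 lay within the HFD range and the other 2 chow arrays below it. The diet difference was 0.36 ± 0.156 (unadjusted p = 0.0346, adjusted p = 0.192), and 0.21 (adjusted p = 0.521) without chow array 2. All 9 prevention arrays lay between 6.72 and 7.17, and HFD against chow was -0.06 ± 0.156 (adjusted p = 0.855).

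Cideb, the member of the family that hepatocytes use in the lipidation of very low density lipoprotein, read 10.51, 9.93 and 10.98 on reversal CMPF+HFD arrays, 10.85, 10.36 and 10.68 on reversal HFD arrays, and 10.92, 9.96 and 10.46 on reversal chow arrays. These groups overlapped, and HFD against chow was 0.18 ± 0.261 (adjusted p = 0.701). In the prevention model it read 10.32, 10.27 and 10.32 on CMPF+HFD arrays, 9.85, 10.23 and 9.87 on HFD arrays, and 10.72, 10.27 and 10.60 on chow arrays. The HFD arrays lay below the chow arrays with a small gap, and HFD against chow was -0.55 ± 0.261 (unadjusted p = 0.0543, adjusted p = 0.210). The name of the Cideb probe set (1418976_s_at) also ends in _s_at, as for the brighter Plin5 probe set.

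Cidec, known in fat-laden mouse liver as a droplet fusion protein, stood near the filter on low signal. It read 3.59, 3.87 and 4.30 on reversal CMPF+HFD arrays, 4.19, 3.92 and 6.02 on reversal HFD arrays, and 4.24, 4.45 and 4.11 on reversal chow arrays. HFD array 3 alone lay above 4.45 in that model. The diet difference was 0.45 ± 0.439 (adjusted p = 0.556), and -0.21 without that array (adjusted p = 0.713). Cidec in the prevention model read 4.34, 4.68 and 4.81 on CMPF+HFD arrays, 5.70, 4.75 and 4.38 on HFD arrays, and 4.69, 4.75 and 4.76 on chow arrays, and HFD against chow was 0.21 ± 0.439 (adjusted p = 0.813). Here HFD array 1 stood above the rest.

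Cidea, a CIDE gene of brown fat that is also known from steatotic mouse liver, was below the filter, whose cutoff was a mean signal of 4.01, and was not tested with the others. It read 3.53, 3.59 and 3.66 on reversal CMPF+HFD arrays, 3.75, 3.42 and 6.86 on reversal HFD arrays, and 3.70, 3.66 and 3.48 on reversal chow arrays. It read 3.63, 3.72 and 3.78 on prevention CMPF+HFD arrays, 3.90, 3.77 and 3.599 on prevention HFD arrays, and 3.79, 3.71 and 3.79 on prevention chow arrays. Reversal HFD array 3 stood 2.96 above the next array, a gap exceeded by 9 of 45037 probe sets, and the other 17 arrays lay between 3.42 and 3.90. In a fit of all 18193 genes without the filter, HFD against chow in the reversal model was 1.07 ± 0.592 (adjusted p = 0.330), and -0.03 (adjusted p = 0.932) without HFD array 3, an alternative chosen after seeing the data.

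On that array Cidec and G0s2 were also at their highest of all arrays, by 0.33 and 0.41. Of the 10 adipocyte markers listed, 7 were on the array and 4 passed the filter. Their mean signal was 4.74 to 4.99 in reversal HFD livers and 4.76 to 5.17 in reversal chow livers, and HFD array 3 was at 4.99. The listed genes that did not pass the filter, Adipoq, Lep and Ucp1, read 3.18, 3.51 and 3.74 there, below its cutoff. Fabp4, which passed, read 7.77 against 6.94 to 7.64 on reversal chow arrays. Lipe, the hormone-sensitive lipase that is on both the adipocyte and the lipolysis list, read 6.91 there, the highest of the 18 arrays, against 6.27 and 6.33 on the other reversal HFD arrays and 6.27 to 6.40 on reversal chow arrays. The part of other cell types in the high Cidea, Cidec and G0s2 of that array was not tested. Only 6 probe sets had HFD array 3 highest by more than 1, against 145 with chow array 2 highest by more than 1.

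**Figure D3:**
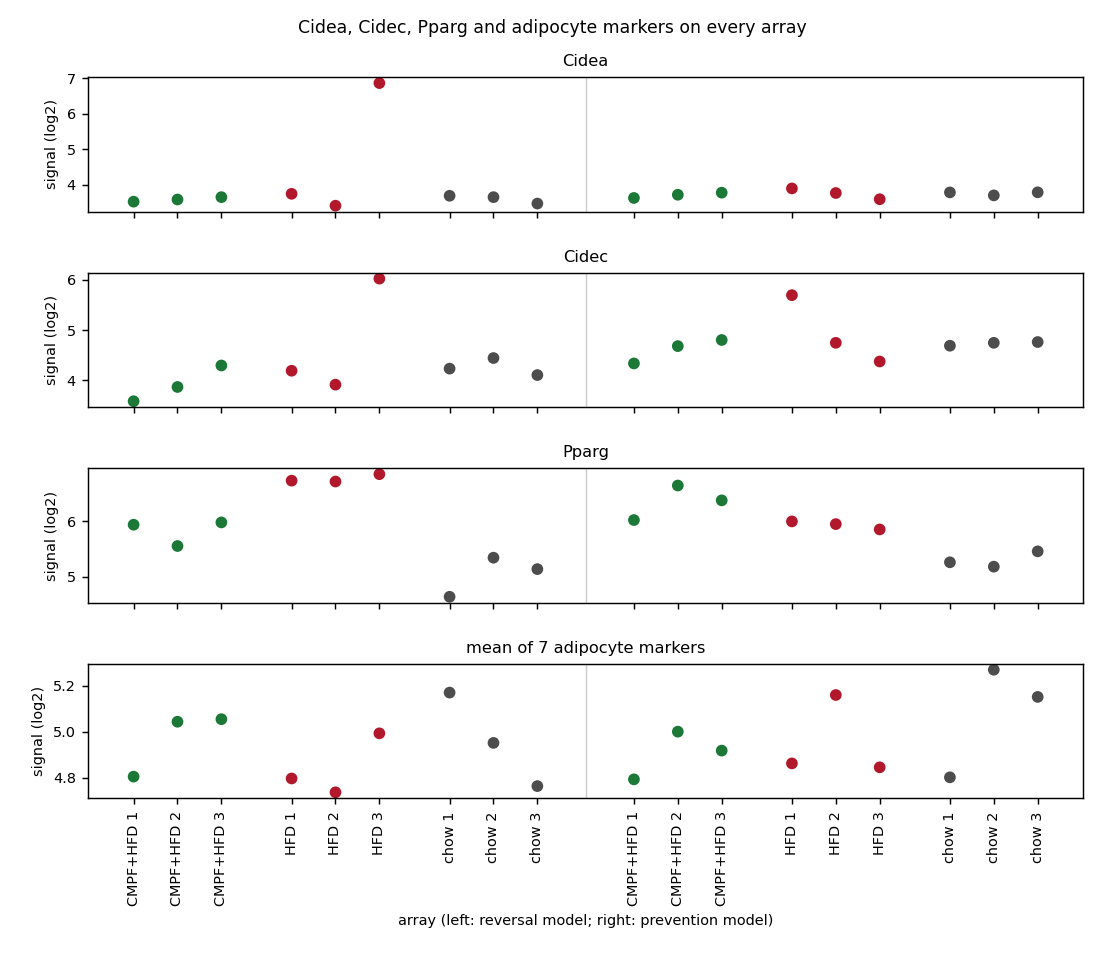
Signal (log2) of Cidea, Cidec, Pparg and the mean of 7 adipocyte markers on each of the 18 arrays, with the reversal model on the left and the prevention model on the right. Cidea at 6.86 and Cidec at 6.02 are highest on reversal HFD array 3, Pparg is high on all 3 reversal HFD arrays (6.71 to 6.84), and the adipocyte markers on reversal HFD array 3 (4.99) lie within the range of the chow arrays.

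Pnpla2, which encodes adipose triglyceride lipase, had a within-group SD of 0.228, above that of 59.8% of genes. Its brighter probe set (1428143_a_at) read 7.52, 7.44 and 7.77 on reversal CMPF+HFD arrays, 7.41, 7.42 and 7.76 on reversal HFD arrays, and 7.62, 6.86 and 7.58 on reversal chow arrays. It read 7.39, 7.29 and 7.05 on prevention CMPF+HFD arrays, 7.64, 7.44 and 7.35 on prevention HFD arrays, and 7.46, 7.55 and 7.49 on prevention chow arrays. Chow array 2 of the reversal model was the lowest of all 18, and HFD and chow arrays overlapped in both models. HFD against chow was 0.18 ± 0.179 in the reversal model (95% interval -0.20 to 0.56) and -0.02 ± 0.179 in the prevention model (95% interval -0.41 to 0.36), with adjusted p of 0.563 and 0.959. The dimmer probe set (1428591_at) lay between 4.22 and 4.90 on all arrays.

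G0s2, the inhibitor that binds the Pnpla2 lipase, was more variable, with a within-group SD of 0.495. It read 10.72, 10.25 and 11.07 on reversal CMPF+HFD arrays, 11.04, 10.09 and 11.82 on reversal HFD arrays, and 11.36, 11.41 and 10.82 on reversal chow arrays. It read 11.01, 10.64 and 10.78 on prevention CMPF+HFD arrays, 10.07, 10.26 and 11.07 on prevention HFD arrays, and 11.07, 10.95 and 10.80 on prevention chow arrays. The HFD groups spanned the chow groups in the reversal model and reached from well below them to their upper edge in the prevention model. HFD against chow was -0.22 ± 0.365 (adjusted p = 0.753) in the reversal model and -0.47 ± 0.365 (adjusted p = 0.455) in the prevention model.

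Hsd17b13, a droplet protein of hepatocytes, had the widest spread of the members, with a within-group SD of 1.05 that exceeded that of 99.6% of genes. Its brighter probe set (1460606_at) read 7.43, 11.53 and 11.49 on reversal CMPF+HFD arrays, 11.20, 11.45 and 10.57 on reversal HFD arrays, and 11.58, 11.38 and 11.14 on reversal chow arrays. CMPF+HFD array 1 alone was low, 2.51 under every other array of both models. The prevention model had no such array, with 11.14, 10.65 and 10.57 on CMPF+HFD arrays, 10.12, 9.94 and 10.27 on HFD arrays, and 11.42, 10.86 and 10.93 on chow arrays. There every HFD array lay below every chow array and every CMPF+HFD array.

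HFD against chow for Hsd17b13 was -0.96 ± 0.759 in the prevention model (adjusted p = 0.469). This SE holds the low reversal array through the shared estimate of spread. Without that array the same difference had an adjusted p of 0.0425, and with only the prevention arrays in the fit, 0.0296. With only those arrays 1151 of all genes passed, against 737 in the main fit. With the 3' to 5' index as a covariate no member passed in this comparison, and 17 of all genes did. In the reversal model HFD against chow was -0.30 ± 0.759 (adjusted p = 0.846). On the dimmer probe set HFD against chow was -0.46 ± 1.32 in the prevention and 1.22 ± 1.32 in the reversal model.

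The dimmer Hsd17b13 probe set (1425589_at) split the samples. It read 9.30, 4.41 and 8.32 on reversal CMPF+HFD arrays, 8.16, 4.69 and 7.81 on reversal HFD arrays, and 4.51, 4.19 and 8.28 on reversal chow arrays. It read 5.00, 8.20 and 8.12 on prevention CMPF+HFD arrays, 8.10, 8.27 and 7.996 on prevention HFD arrays, and 8.71, 8.53 and 8.51 on prevention chow arrays. Thus 5 samples lay between 4.19 and 5.00 and 12 between 7.81 and 9.30, with a gap of 2.81. With this one included, 6 of 45037 probe sets had a gap as wide with at least 4 samples on each side. The 5 low samples came from 4 of the 6 groups, and they read 11.14 to 11.58 on the brighter probe set. CMPF+HFD array 1 of the reversal model, the lowest on the brighter probe set, was the highest on the dimmer one.

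CMPF on top of the diet was tested in the same fit, and 0 of the 9 tested members passed limma's threshold in either model. In the reversal model 0.0378% of all genes were called, and 0 members and 634 genes had an unadjusted p under 0.05. For the prevention model 0% were called, with 0 members and 1060 genes under an unadjusted 0.05. The members' median log2 fold change was -0.30 in the reversal model and -0.19 in the prevention model, beside -0.01 and 0.02 over all genes, and 7 and 6 of the 9 had a negative sign. CMPF+HFD against HFD and HFD against chow share the HFD arrays, so a chance deviation of those arrays enters both with opposite signs.

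The perilipins with the widest reversal differences were Plin4 and Plin5. CMPF+HFD against HFD was -0.74 ± 0.392 for Plin4 (unadjusted p = 0.0792), with no overlap of the arrays given above, and 0.66 ± 0.311 for Plin5 (unadjusted p = 0.0524), where 1 CMPF+HFD array lay among the HFD arrays. It was -0.30 ± 0.149 for Plin2 (unadjusted p = 0.0643), again with no overlap. All 3 had an adjusted p of 1.00. Groups did not overlap for 2 of 9 members in this comparison, against 8.82% of all genes. The 95% intervals were -1.58 to 0.10 for Plin4, -0.01 to 1.33 for Plin5 and -0.62 to 0.02 for Plin2.

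The other 6 tested members overlapped between reversal CMPF+HFD and HFD arrays. Cidec differed by -0.79 ± 0.439 (unadjusted p = 0.0923), and by -0.14 without HFD array 3, on which it was high. Hsd17b13 differed by -0.92 ± 0.759, and by 0.44 without CMPF+HFD array 1, so 1 array set its sign. Its dimmer probe set was at 0.45 ± 1.32. G0s2 (-0.30), Cideb (-0.16), Plin3 (-0.06) and Pnpla2 (0.04) differed by less than 1 SE.

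The perilipins in the prevention model differed between CMPF+HFD and HFD livers by -0.23 for Plin2, -0.19 for Plin3, -0.24 for Plin4 and -0.05 for Plin5, with the groups overlapping for all 4. Cidec was at -0.40, Pnpla2 at -0.20 and G0s2 at 0.39. Cideb (0.32 ± 0.292) and the brighter Hsd17b13 probe set (0.77 ± 0.849) were higher on every CMPF+HFD array than on every HFD array, and 30.7% of all genes did not overlap in this comparison. The dimmer Hsd17b13 probe set had the opposite sign, at -1.54 ± 1.48 (adjusted p = 0.875 over 27022 probe sets). Adjusted p ranged from 0.792 to 0.987 over the 9 members. The CMPF effect in the reversal model minus that in the prevention model passed for 0 of 9 members and for 0% of genes, with 0 members and 1048 genes under an unadjusted p of 0.05, and Plin5 had 0.70 ± 0.466 (adjusted p = 0.759).

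**Figure D4:**
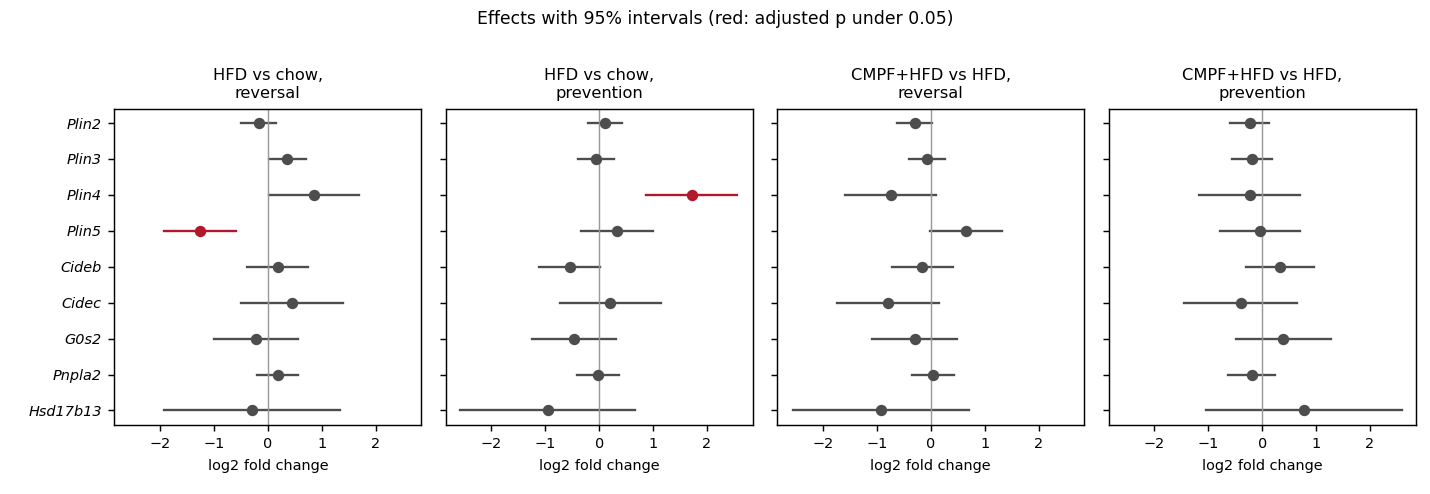
Log2 fold change with its 95% interval (limma) for the 9 tested members in the 4 comparisons of HFD with chow and of CMPF+HFD with HFD. Red marks an adjusted p under 0.05, which holds for Plin5 in reversal HFD against chow (-1.26) and for Plin4 in prevention HFD against chow (1.71), and for no member in either CMPF comparison.

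Against chow, reversal CMPF+HFD livers had 0 of 9 members called, where 2% of all genes were, and 1 member and 2384 genes had an unadjusted p under 0.05. Plin2 was lowest relative to its error, at -0.47 ± 0.149 (unadjusted p = 0.00704, adjusted p = 0.119), with every CMPF+HFD array below every chow array, as for 18.4% of all genes. It passed after quantile (-0.60, adjusted p = 0.0391) and cyclic loess normalization over all arrays (-0.65, adjusted p = 0.0302). Plin5 stood at -0.60 ± 0.311 (adjusted p = 0.330) and Plin4 at 0.12 ± 0.392 (adjusted p = 0.903). In the prevention model 0 of 9 were called, where 0% of genes were, with 1 member and 1321 genes under an unadjusted p of 0.05. Plin4 stood at 1.48 ± 0.438 (unadjusted p = 0.00459, adjusted p = 0.379), and Plin3, Plin4 and Pnpla2 did not overlap with chow, against 31.7% of genes.

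The members did not vary as a block. Over the 17 samples, after each model's mean was subtracted, Pearson's r between members was highest for Plin3 and Pnpla2 (0.66) and for Plin3 and Cideb (0.56), and lowest for Plin3 and Plin5 (-0.47). By the same measure, the genes most like Plin4 among 12502 named genes were R3hdm4 (0.88), Dglucy (0.84) and Spg7 (0.82). Those most like Plin5 were Dhx38, Nedd4l and Ints14, each at 0.84. These are descriptions over the same samples, in which the group differences and the array that stands apart contribute.

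Other genes of the droplet were taken from a list of 17, of which 16 were tested. In reversal HFD against chow livers 1 was called higher and 0 lower, where 2.45% of all genes were called. Fitm1, which helps package triglyceride into droplets, read 10.01, 9.33 and 10.02 on HFD arrays against 8.92, 7.61 and 8.23 on chow arrays. All HFD arrays exceeded all chow arrays, and Fitm1 rose by 1.54 ± 0.344 (adjusted p = 0.0334), or 1.21 (adjusted p = 0.106) without chow array 2. In prevention HFD against chow livers 0 were called higher and 3 lower, where 5.57% of all genes were called. The median of the 16 was 0.10 in the reversal model and -0.10 in the prevention model, beside 0.03 and 0.00 over all genes.

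Pcyt1a, the regulated enzyme of phosphatidylcholine synthesis on droplets, read 7.04, 7.42 and 7.22 on prevention HFD arrays against 8.81, 8.005 and 8.54 on prevention chow arrays. It fell by 1.23 ± 0.294 (adjusted p = 0.0316) without overlap. On reversal arrays it read 8.83, 8.07 and 8.24 on HFD arrays against 7.91, 7.12 and 7.55 on chow arrays, again without overlap, and the difference was 0.85 ± 0.294 (adjusted p = 0.123). Its diet effect differed between the models by 2.08 ± 0.415 (adjusted p = 0.0191).

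Rab18, a small GTPase of the droplet surface, fell by 1.12 ± 0.296 (adjusted p = 0.0430) in prevention HFD livers, and Ldah, a droplet hydrolase, by 0.65 ± 0.128 (adjusted p = 0.0179). All 3 prevention calls were lost with the 3' to 5' index as a covariate, at -0.57 for Pcyt1a, -0.38 for Rab18 and -0.50 for Ldah (adjusted p = 0.344, 0.444 and 0.189), and the calls of Pcyt1a, Rab18 and Ldah were kept in 12, 6 and 13 of the 17 fits that left out 1 sample. With the index, 17 of all genes passed in prevention HFD against chow livers, against 737 without it. The diet effect was higher in the reversal than in the prevention model for 4 of the 16, Pcyt1a, Rab18 (1.70 ± 0.419), Ldah (0.73 ± 0.181) and Mettl7a1 (1.03 ± 0.266), and lower for 1, Lpcat1 (-0.54 ± 0.145), where 11% of all genes were called. These 5 had adjusted p from 0.0191 to 0.0342, and 0 of the 5 kept the call with the index as a covariate, where the differences were 1.17 for Pcyt1a, 0.69 for Rab18, 0.52 for Ldah, 0.51 for Mettl7a1 and -0.44 for Lpcat1. Mettl7a1, a membrane protein that associates with droplets, was the 1 list gene called in reversal CMPF+HFD against chow livers (0.78 ± 0.188, adjusted p = 0.0495; 0.69 and 0.146 without chow array 2). That call was kept in 4 of 12 other settings and in 4 of the 17 fits that left out 1 sample. Of all genes, 2% were called in that comparison. For CMPF+HFD against HFD 0 of 16 were called, and the smallest unadjusted p were those of Fitm1 (-0.43) and Bscl2 (-0.17) in the reversal model and of Ldah (0.27) and Rab18 (0.60) in the prevention model.

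Of 13 other lipolysis genes, 11 were tested. Aadac, a lipase of the hepatocyte endoplasmic reticulum, read 10.14, 10.09 and 10.28 on prevention HFD arrays against 11.01, 10.62 and 10.91 on prevention chow arrays. Without overlap, it fell by 0.68 ± 0.157 (adjusted p = 0.0297), and it was the 1 gene of the list called in either diet comparison. Over all genes, 5.57% were called in the prevention and 2.45% in the reversal model. The diet effect on Aadac was higher in the reversal model by 0.98 ± 0.223 (adjusted p = 0.0252), where 11% of all genes were called. The prevention call was kept in 12 of the 17 fits that left out 1 sample, and with the index as a covariate the difference was -0.46 (adjusted p = 0.307). Abhd5, the activator of the Pnpla2 lipase, was at 0.53 ± 0.256 in reversal and -0.65 ± 0.256 in prevention HFD against chow livers (adjusted p = 0.234 and 0.137). For CMPF+HFD against HFD 0 of 11 were called, with Abhd5 (-0.35) and Fabp1 (-0.13) smallest in p in the reversal model and Lipe (-0.34) and Ces1g (-0.60) in the prevention model.

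Of 10 regulators of these genes, 10 were tested. Pparg, a fatty acid receptor that drives droplet genes in fat cells, read 5.93, 5.55 and 5.98 on reversal CMPF+HFD arrays, 6.73, 6.71 and 6.84 on reversal HFD arrays, and 4.64, 5.34 and 5.14 on reversal chow arrays. The 3 groups did not overlap, with CMPF+HFD between the others. Pparg rose by 1.72 ± 0.176 in HFD against chow livers (adjusted p = 0.000766), and the call was kept in 17 of 17 fits that left out 1 sample and in 11 of 12 other settings, the exception being the fit of only the 2 groups (adjusted p = 0.0866). CMPF+HFD against HFD was -0.94 ± 0.176 (unadjusted p = 0.000105, adjusted p = 0.0992), and CMPF+HFD exceeded chow by 0.78 (adjusted p = 0.0383), a call kept in 9 of 17.

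Pparg in the prevention model read 6.02, 6.64 and 6.37 on CMPF+HFD arrays, 5.99, 5.95 and 5.85 on HFD arrays, and 5.26, 5.18 and 5.46 on chow arrays. Arrays on the diet all exceeded the chow arrays, and HFD against chow was 0.63 (adjusted p = 0.0511). Every CMPF+HFD array lay above every HFD array here, while in the reversal model every one lay below. Of all genes, 30.7% did not overlap in this prevention comparison, where CMPF+HFD had n = 2, and 8.82% in the reversal one. In both, 0 of the 10 regulators were called. The CMPF effect in the reversal model minus that in the prevention model was -1.27 for Pparg. That test called 0 of the 10 regulators and 0% of all genes. Nr1h3, the oxysterol receptor LXR alpha, was the other regulator called in reversal HFD against chow livers (0.61, adjusted p = 0.0242; 0.59 and 0.0703 without chow array 2). This made 2 of 10, where 2.45% of all genes were called. The remaining 8 regulators had log2 fold changes from -0.01 to 0.89 in that comparison. The diet effect differed between models for 2 of 10, where 11% of all genes were called. These were Pparg (1.09, adjusted p = 0.0256) and Rxra, the partner of both receptors (0.58, adjusted p = 0.0365). With the index as a covariate the differences were 0.98 and 0.63 with adjusted p of 0.246 and 0.241, and 0 of all genes passed. The Pparg call was kept in 9 of 10 other settings and in 13 of the 17 fits that left out 1 sample. The Rxra call was kept in 5 of the 10 and in 9 of the 17, with differences from 0.18 to 0.63 over the 10 settings.

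The 3 calls on members were recomputed under 12 other settings (10 for the difference between models) and with each of the 17 samples left out. Plin4 in the prevention model passed in 10 of the 12 and in 13 of the 17, Plin5 in the reversal model in 5 of the 12 and in 5 of the 17, and the Plin5 difference between models in 8 of the 10 and in 7 of the 17. No setting turned the sign of any of the 3.

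**Figure D5:**
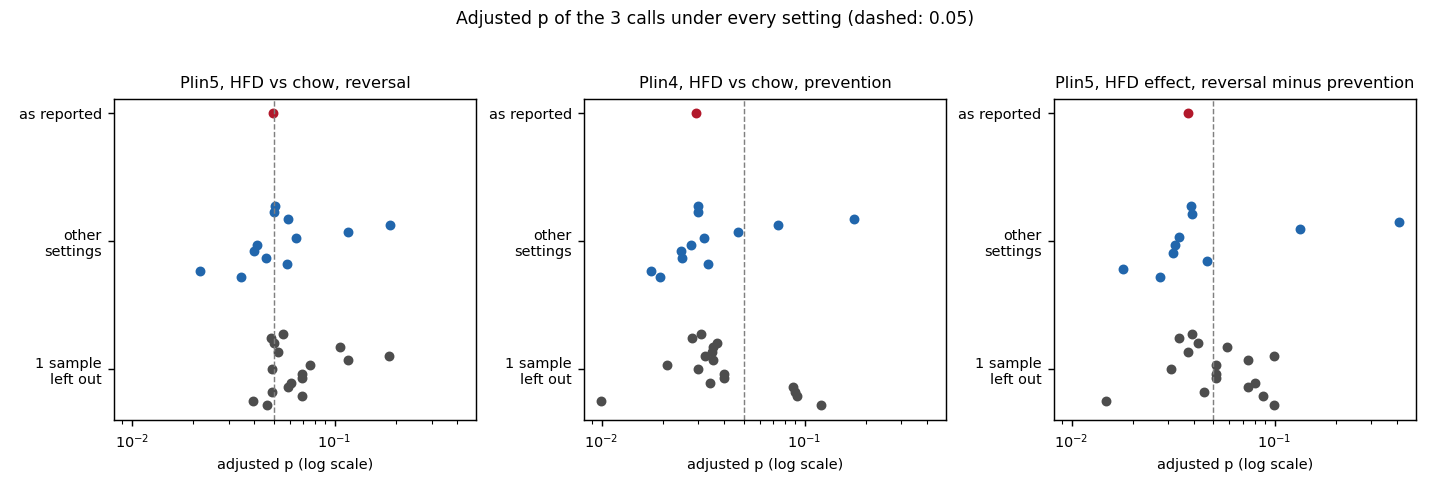
Adjusted p (horizontal log axis, dashed line at 0.05) of the 3 calls on members as reported (red), under each other setting (blue) and with each sample left out in turn (grey). The points for Plin4 lie mostly left of the line (10 of 12 settings, 13 of 17 samples left out), while those for Plin5 in the reversal model lie on both sides of it (adjusted p from 0.0217 to 0.188).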

How the data were processed

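The deposited values are log2 signals that the authors obtained by RMA in Affymetrix Expression Console 1.1, per the submitters' processing notes. Labelling started from 200 ng of RNA isolated with a Qiagen kit, per the labels' protocols. Array means were 5.08 to 5.10 in the prevention and 5.25 to 5.26 in the reversal model, so comparisons stay within a model; which arrays were normalized together is not given in the sources used here. Of 45101 probe sets, 64 were controls, 34945 had 1 gene symbol in the platform annotation, 932 had several and 9160 were unlisted. Probe sets in the lowest 40% by mean signal were dropped, and the brightest probe set stood for a gene. Tests used limma 3.58.1 (R 4.3.3) on 1 fit of 6 group means (11 residual and 3.02 prior degrees of freedom) with Benjamini-Hochberg adjustment. Correlations are Pearson's, over samples centred by model. Arrays give no depth, and their number limits the precision. The pipeline was tested on simulated data.

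The text names all 10 members, genes of the wider lists past the threshold and otherwise the 2 with the smallest p, regulators past the threshold, and the 3 genes most correlated with each called member. Members and lists were chosen with earlier results of these data known. The fit of Cidea without 1 array and the alternatives for the wider lists were added after seeing the data. Of the tested marker genes of stellate, endothelial, lymphocyte and bile duct cells, 0 passed in reversal HFD against chow livers or in CMPF+HFD against HFD livers, and 1 endothelial gene passed in prevention HFD against chow livers. For the difference in diet effect, 1 endothelial and 1 bile duct gene were lower in the reversal model.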

Additional observations from a re-analysis of the deposited data

Results flagged for a closer look

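In the main fit, the effect of the high-fat diet on Plin5 differed between the models by the test of the difference itself. HFD against chow was -1.26 ± 0.311 in the reversal model and 0.33 ± 0.311 in the prevention model (log2, SE), a difference of -1.59 ± 0.440 with an adjusted p of 0.0376 in limma. In the reversal model 3 of 3 HFD arrays lay below every chow array, and in the prevention model the groups overlapped. The dimmer probe set of the gene gave a difference of -0.20 ± 0.424 (adjusted p = 0.769). The call was kept in 7 and lost in 10 of the 17 fits that each left out 1 sample. With the 3' to 5' index as a covariate the adjusted p was 0.412, and 0 of all genes passed. That index was higher in HFD than in chow livers by 1.42 in the prevention model, and the difference was -0.53 in the reversal model. The models also differ in the length of the diet, in the timing of the injections and in the level of the deposited values. These cannot be told apart.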

How the results depend on the processing

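Of the 9 tested members, 1 passed in HFD against chow in the reversal model, and 0 passed without the filter on low signal, with probe sets averaged per gene, with only the arrays of the model or of the 2 groups, with the 3' to 5' index as a covariate, with an intensity trend or with robust eBayes (0 to 1 with a sample left out). In the prevention model 1 passed, against 2 with only that model's arrays, 0 with the index and 0 to 2 with a sample left out. With only the 2 groups the count was again 1, but it was Hsd17b13 (adjusted p = 0.0497) in place of Plin4 (0.0737). For the difference in diet effect 1 passed, against 2 after cyclic loess, 0 with the mean of probe sets, 0 with the index and 0 to 2 with a sample left out. In reversal CMPF+HFD against chow 0 passed, against 1 after quantile and 1 after cyclic loess normalization, and 0 with any sample left out. For CMPF+HFD against HFD in both models, prevention CMPF+HFD against chow and the difference in CMPF effect, the count was 0 under every setting run. The cause of these changes was not tested.

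Over all genes, the 324 calls of reversal HFD against chow became 38 with only the model's arrays and 0 with only the 2 groups. The 737 of prevention HFD against chow became 1151 and 278, and 17 with the index. The 1452 for the difference in diet effect became 0 with the index, the 265 of reversal CMPF+HFD against chow became 59 and 8, and the 5 of reversal CMPF+HFD against HFD ranged over 0 to 17. With all 18 arrays counted singly, 36 genes passed in prevention CMPF+HFD against HFD and 6 in prevention CMPF+HFD against chow, against 0 each. With a sample left out, the counts ranged over 99 to 577 for reversal and 8 to 1624 for prevention HFD against chow, 0 to 2400 for the difference in diet effect, 73 to 267 for reversal CMPF+HFD against chow and 0 to 10 for reversal CMPF+HFD against HFD.

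Deviations from group means of arrays that share a replicate number had a median r of -1.57e-05 in the reversal and -0.165 in the prevention model. The 9 pairs of each model ranged over -0.161 to 0.393 and -0.368 to 0.442. Pairs with unlike numbers ranged over -0.481 to 0.566 and -0.384 to 0.395. So few pairs cannot exclude that the numbers pair arrays. With the replicate number as a block the counts of members stayed at 1 for each diet result and 0 for CMPF, with Plin5 at -1.26 (adjusted p = 0.0217) and Plin4 at 1.71 (adjusted p = 0.0175).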
